A study of Mus musculus with 8 samples.

Results

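Genes that set the tone of pulmonary vessels were followed in lung RNA of Wfdc2+/+ and Wfdc2GFP/GFP mice before and after birth. The 9 genes, *Edn1*, *Ece1*, *Ednra*, *Nos3*, *Pde5a*, *Ptgis*, *Ace*, *Agtr1a* and *Agtr2*, were chosen by name for their known function, with earlier results of these data known. They make up 9 of the 25965 genes in the deposited values. Whole lungs were taken at E18.5, shortly before birth, and at P1.5, after the onset of breathing, from Wfdc2+/+ mice and from Wfdc2GFP/GFP mice, homozygous for a knock-in of GFP that disrupts *Wfdc2*. Each of the 4 groups had 2 libraries, 8 in all, and every library was made from total lung RNA without sorting of cells. The labels do not say whether replicates were separate litters, so p-values measure the spread between these libraries. The GFP allele is carried by every cell of the mouse, and a difference between genotypes measured in whole lung cannot be placed in a cell type. The 6 alveolar epithelial markers read as a check of the tissue summed to between 7230 and 64204 RPKM over exons in the 8 libraries.

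Vascular tone is set by signals that pass between the endothelium, which lines the vessel, and the smooth muscle around it. Endothelium releases the constrictor endothelin, cut from its precursor by endothelin converting enzyme, and the dilators nitric oxide and prostacyclin, while nitric oxide acts on smooth muscle through cyclic GMP, which phosphodiesterase breaks down. Angiotensin converting enzyme, abundant on lung capillaries, makes angiotensin II, which constricts vessels through its type 1 receptor, and the type 2 receptor is best known from fetal tissue. Resistance of the pulmonary vessels is high before birth and falls when the lung fills with air.

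Reads of *Wfdc2* itself numbered 8038 to 32845 per Wfdc2+/+ library, against 0 to 12 per Wfdc2GFP/GFP library. Totals ran from 19457647 to 37209333 reads, and each of the 9 genes had at least 92 reads in every library, far above the 3 reads taken as the limit of detection. Replicate number went with sex in every group. Replicate 1, read as female, had between 4121 and 90980 reads of *Xist* and 0 to 3 of *Ddx3y*. Replicate 2, read as male, had between 1 and 13 of *Xist* and 972 to 2175 of *Ddx3y*. The main fit had no term for sex, so the spread within each pair includes any difference between the sexes. Long transcripts were measured higher relative to short ones at E18.5 than at P1.5. Split by exon length, the difference between the 20% longest genes, from 6990 bases, and the 20% shortest, up to 1908, was between 0.17 and 1.33 (log2) in the E18.5 libraries and between -1.001 and -0.06 in the P1.5 libraries, so that this trend moves with stage. Replicates 1 and 2 of P1.5 Wfdc2+/+ were the least alike of the 4 pairs, with a median absolute difference of 0.795 (log2) over the genes tested against 0.144, 0.561 and 0.379 in the other groups. The 2 libraries farthest from the rest were replicate 1 of E18.5 Wfdc2GFP/GFP and replicate 1 of P1.5 Wfdc2+/+, with a median absolute deviation from the gene means of 0.638 and 0.603, against 0.276 to 0.558 in the other libraries.

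RefSeq promoters (GRCm38.p6) were matched to 6 of the 9 genes by symbol, *Edn1*, *Ece1*, *Ednra*, *Pde5a*, *Ace* and *Agtr2*. Each covers 250 bases before the start of transcription and 50 bases after it. Those of *Edn1*, the ligand at the head of the constrictor pathway, and of *Agtr2*, the receptor with the lowest unadjusted p across birth, are printed in the direction of transcription, and capitals mark matches on either strand to ACGTG, the core of the hypoxia response element, GATAAG, the site of GATA factors, TGACTCA, the site of AP-1, and GGAATN, the core of the TEAD site. The *Edn1* promoter (chr13:42301226-42301525, plus strand) held the last of these, then GATAAG and ACGTG, all on the minus strand and therefore printed as reverse complements, from positions -207, 8 and 22 from the start site. The *Agtr2* promoter (chrX:21484374-21484673, plus strand) held none of the 4.
Edn1: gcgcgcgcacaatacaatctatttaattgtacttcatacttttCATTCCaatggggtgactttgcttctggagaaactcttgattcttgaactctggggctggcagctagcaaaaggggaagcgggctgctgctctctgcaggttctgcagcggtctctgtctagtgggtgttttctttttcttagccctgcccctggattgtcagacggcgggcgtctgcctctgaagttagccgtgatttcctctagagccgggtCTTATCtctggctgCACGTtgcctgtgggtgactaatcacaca
Agtr2: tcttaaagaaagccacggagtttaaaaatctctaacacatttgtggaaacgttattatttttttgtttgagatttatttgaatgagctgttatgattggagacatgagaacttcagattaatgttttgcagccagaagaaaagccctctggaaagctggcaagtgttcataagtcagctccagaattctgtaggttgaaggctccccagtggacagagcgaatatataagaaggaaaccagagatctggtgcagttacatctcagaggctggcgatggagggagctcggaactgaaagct
Among 32851 RefSeq mouse promoters of this length, ACGTG was found in 19.6%, GATAAG in 7.4%, TGACTCA in 5.2% and GGAATN in 38.7%. ACGTG was also in 1 of the 4 promoters of *Ece1*, at positions -90 and -89 on opposite strands where the matches overlap, while the promoters of *Ednra* and *Pde5a* held no match. A match describes the letters and does not show that a factor binds.

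Levels were compared between genes per exon base, as RPKM over the exons of GENCODE M21. The sources used here do not say whether reads in introns were counted, and any such reads are part of these levels. *Ace* was the highest of the 9 in median, at 51.1 RPKM over the 8 libraries (range 24.9 to 70.6), followed by *Ece1* at 27.2 (21.4 to 40.3). *Pde5a* and *Ednra*, both genes of smooth muscle, had medians of 21.1 and 19.2 RPKM, and *Ptgis*, which encodes prostacyclin synthase, 14.2. The endothelial genes *Edn1* and *Nos3* were lower, at 6.31 and 5.93 RPKM, and the angiotensin receptor genes were lowest, at 3.75 for *Agtr1a* and 3.42 for *Agtr2*. Every neighbouring pair in this order overlapped in range over the 8 libraries. *Pde5a* lay above *Ednra*, and *Edn1* above *Nos3*, in 4 of 8 libraries, so these pairs had no order. *Ptgis* changed its place with stage, from the fifth at E18.5 (median 9.74) to the third at P1.5 (median 29.9), and at E18.5 its 4 libraries lay wholly below those of *Ednra*.

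**Figure D1:**
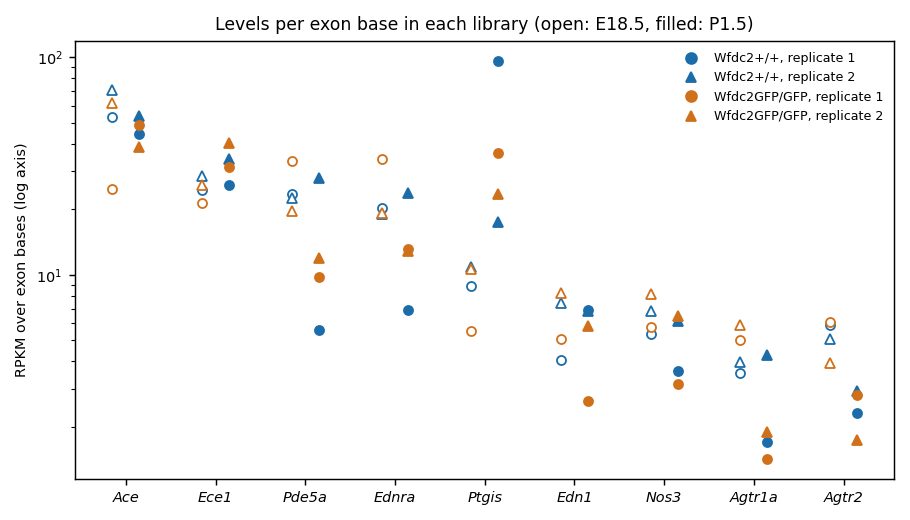
RPKM over exon bases (log axis) of the 9 genes in each of the 8 libraries, in order of their median over all libraries, with E18.5 as open and P1.5 as filled symbols, colour for genotype and shape for replicate. *Ace* and *Ece1* sit at the top and both angiotensin receptor genes at the bottom, and *Ptgis* spans the widest range, from 5.50 to 96.6.

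The first question was how the 9 genes changed across birth, with both genotypes pooled. None of the 9 passed the test (limma, Benjamini-Hochberg over 15627 genes, adjusted p under 0.05), where 803 genes, or 5.14% of those tested, did (403 higher and 400 lower at P1.5, or 1278 higher and 564 lower with each library centred on its median). At an unadjusted p under 0.05 there were 3, *Ptgis* on the higher side and *Agtr2* and *Agtr1a* on the lower, beside 6092 of all genes tested (39%), and limma's voom on the recovered reads called 0 as well. Of the 9 estimates 2 were above 0 and 7 below, with a median of -0.48 (log2), beside -0.32 for all genes tested, of which 9804 were below 0. Changes are therefore given as measured and, for the leading genes, also relative to that median.

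*Ptgis*, the synthase of the dilator prostacyclin, had the largest estimate. In log2 RPKM as deposited, over the whole span of the gene, it stood at -1.10 and -0.81 in the E18.5 Wfdc2+/+ libraries (replicates 1 and 2), -1.79 and -0.84 in E18.5 Wfdc2GFP/GFP, 2.35 and -0.12 in P1.5 Wfdc2+/+, and 0.93 and 0.31 in P1.5 Wfdc2GFP/GFP. All 4 P1.5 libraries were above all 4 E18.5 libraries, and replicate 1 of P1.5 Wfdc2+/+ was far above the rest. Behind these values are 5383 reads in that library against 877 in its partner, and 525 to 866 reads at E18.5. The change was 2.00 ± 0.53 (log2, SE; 95% interval 0.77 to 3.23), 4.01-fold, or 2.32 above the median gene, with an adjusted p of 0.0574 in limma. Without both libraries that stood apart the estimate was 1.15 ± 0.25, just past the threshold (adjusted p 0.0489, with 9.43% of all genes called). Its 4 P1.5 libraries separated from the 4 at E18.5 in the same way as 7.28% of all genes tested, which were higher without overlap.

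*Agtr2*, the fetal angiotensin receptor gene on the X chromosome, was the nearest to the threshold. Its log2 RPKM was 2.08 and 1.87 in E18.5 Wfdc2+/+, 2.13 and 1.495 in E18.5 Wfdc2GFP/GFP, 0.74 and 1.07 in P1.5 Wfdc2+/+, and 1.02 and 0.33 in P1.5 Wfdc2GFP/GFP. The stages did not overlap, with every P1.5 library below every E18.5 library, a pattern that 13.7% of all genes showed in this direction. The change was -1.10 ± 0.26 (95% interval -1.71 to -0.50), 2.15-fold lower at P1.5, or -0.79 relative to the median gene, with an adjusted p of 0.051. Leaving out the 2 libraries that stood apart gave -0.86 ± 0.24 (adjusted p 0.0798).

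*Agtr1a*, which encodes the constricting type 1 receptor, was lower at P1.5 in 3 of 4 libraries. Its log2 RPKM was -2.24 and -2.07 in E18.5 Wfdc2+/+, -1.74 and -1.50 in E18.5 Wfdc2GFP/GFP, -3.29 and -1.96 in P1.5 Wfdc2+/+, and -3.55 and -3.14 in P1.5 Wfdc2GFP/GFP. Replicate 2 of P1.5 Wfdc2+/+ lay within the E18.5 range and the other P1.5 libraries below it. The change was -1.10 ± 0.37 (95% interval -1.95 to -0.24) with an adjusted p of 0.0786. Both receptor genes thus had the same estimate, and the log2 ratio of *Agtr1a* to *Agtr2* within a library differed by 0.01 between stages (exact permutation test, two-sided, p = 1, 4 libraries against 4).

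*Pde5a*, the phosphodiesterase of cyclic GMP, and *Ednra*, the endothelin receptor of smooth muscle, had like profiles. *Pde5a* was at 0.83 and 0.78 log2 RPKM in E18.5 Wfdc2+/+, 1.33 and 0.56 in E18.5 Wfdc2GFP/GFP, -1.25 and 1.07 in P1.5 Wfdc2+/+, and -0.44 and -0.15 in P1.5 Wfdc2GFP/GFP. *Ednra* was at 0.85 and 0.77 in E18.5 Wfdc2+/+, 1.60 and 0.79 in E18.5 Wfdc2GFP/GFP, -0.70 and 1.09 in P1.5 Wfdc2+/+, and 0.23 and 0.20 in P1.5 Wfdc2GFP/GFP. In both, 3 P1.5 libraries were below every E18.5 library, whereas replicate 2 of P1.5 Wfdc2+/+ was higher than 3 of the 4 E18.5 libraries. The changes were -1.07 ± 0.49 for *Pde5a* (adjusted p 0.142) and -0.80 ± 0.41 for *Ednra* (adjusted p 0.176). Without replicate 2 of P1.5 Wfdc2+/+ both passed the test, at -1.65 ± 0.26 and -1.25 ± 0.26 (adjusted p 0.00674 and 0.0116), together with *Ptgis*, *Agtr1a* and *Agtr2*, in a fit that called 45.6% of all genes. Without the pair of libraries that stood apart, which includes the other replicate of that group, they were at -0.30 ± 0.18 and -0.15 ± 0.16.

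The remaining 4 genes had smaller estimates, with intervals that include 0. *Ece1*, which makes active endothelin, was at 0.33 and 0.55 log2 RPKM in E18.5 Wfdc2+/+, 0.14 and 0.41 in E18.5 Wfdc2GFP/GFP, 0.42 and 0.82 in P1.5 Wfdc2+/+, and 0.69 and 1.05 in P1.5 Wfdc2GFP/GFP. Its change was 0.39 ± 0.23 (adjusted p 0.231), or 0.71 above the median gene, and with each library centred on its median it was 0.86 ± 0.21 and passed the test (adjusted p 0.0449, with 11.8% of all genes called). *Ece1* and *Ptgis* were the genes of the 9 with an estimate above 0.

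*Edn1*, the endothelin ligand, was at 0.37 and 1.24 log2 RPKM in E18.5 Wfdc2+/+, 0.70 and 1.40 in E18.5 Wfdc2GFP/GFP, 1.13 and 1.11 in P1.5 Wfdc2+/+, and -0.25 and 0.89 in P1.5 Wfdc2GFP/GFP. *Nos3*, the endothelial nitric oxide synthase, was at 0.17 and 0.52 in E18.5 Wfdc2+/+, 0.27 and 0.78 in E18.5 Wfdc2GFP/GFP, -0.39 and 0.36 in P1.5 Wfdc2+/+, and -0.60 and 0.44 in P1.5 Wfdc2GFP/GFP. The stages overlapped in both genes. The change was -0.20 ± 0.35 for *Edn1* (adjusted p 0.664), with an interval from -1.004 to 0.60, and -0.48 ± 0.33 for *Nos3* (adjusted p 0.281). The *Nos3* reads carry a limit of their own, since 25.2% of its exon bases are shared with *Gm15587*, an antisense transcript, and 7.1% with *Atg9b* on the opposite strand, and the sources used here do not say whether counting used the strand. *Gm15587* had between 2 and 56 reads and *Atg9b* between 4 and 24 per library, beside 300 to 984 for *Nos3*. The overlaps of *Ptgis*, *Ace*, *Ednra*, *Edn1* and *Pde5a* with antisense transcripts covered at most 6.1% of their exon bases.

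*Ace*, the converting enzyme of lung capillaries, was at 3.68 and 4.08 log2 RPKM in E18.5 Wfdc2+/+, 2.58 and 3.89 in E18.5 Wfdc2GFP/GFP, 3.42 and 3.69 in P1.5 Wfdc2+/+, and 3.55 and 3.21 in P1.5 Wfdc2GFP/GFP. Its lowest value was in replicate 1 of E18.5 Wfdc2GFP/GFP, 1 of the libraries that stood apart. The change was -0.09 ± 0.31 (adjusted p 0.836), with a 95% interval from -0.82 to 0.64. The direction of *Ace* and of *Edn1* depended on the scaling, and with libraries centred on their medians their changes were 0.38 and 0.27.

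**Figure D2:**
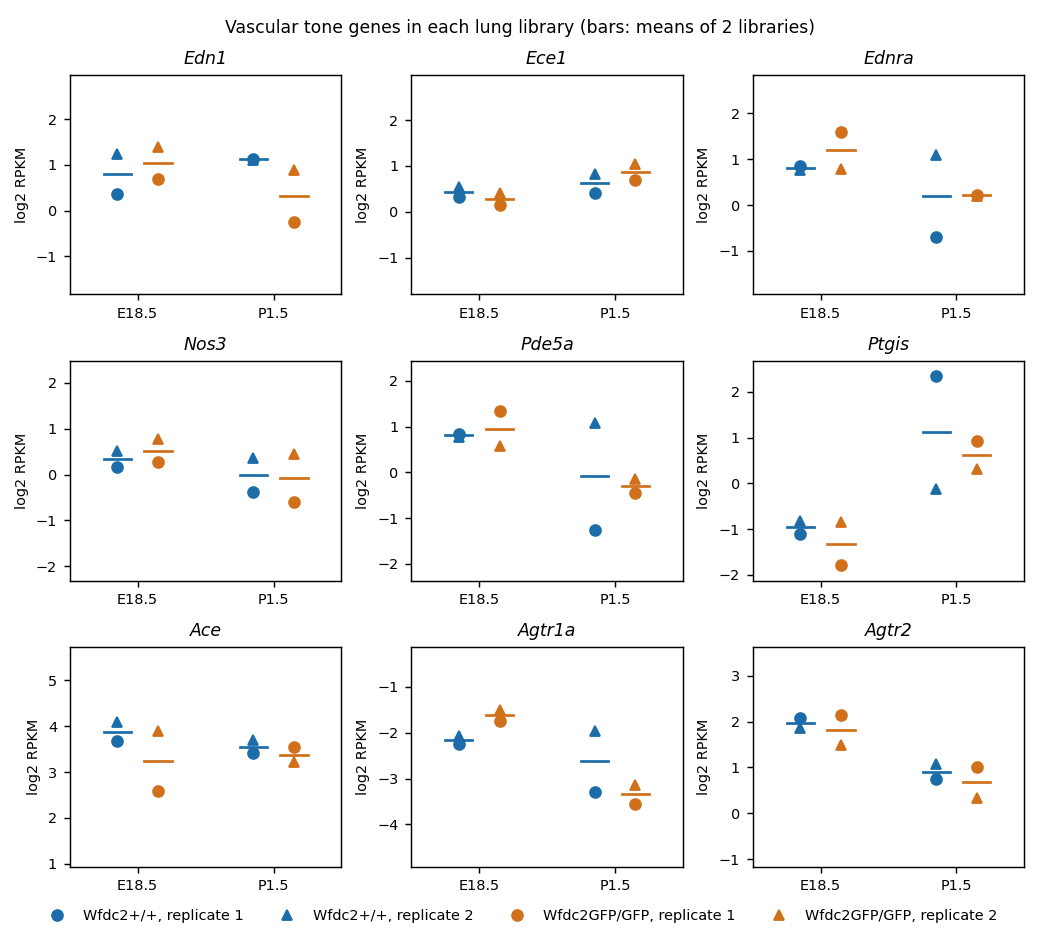
Deposited log2 RPKM of the 9 genes in each library by stage, with colour for genotype, circles for replicate 1, triangles for replicate 2 and short bars for the mean of 2 libraries. Every panel spans the same number of log2 units. *Ptgis* lies wholly higher and *Agtr2* wholly lower at P1.5, and in *Ednra* and *Pde5a* the P1.5 Wfdc2+/+ replicates lie 1.79 and 2.33 apart.

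The trend with transcript length moves with these changes. *Pde5a* is among the 20% longest genes, with 9831 exon bases, and *Ptgis* is shorter, with 2567. *Ednra* and *Ece1* are not among the longest and are alike in length, with 5476 and 5300. In order of the trend from its lowest library to its highest, *Ptgis* went from 2.35 through 0.93, 0.31, -0.12, -0.84, -0.81 and -1.10 to -1.79 log2 RPKM, so that its highest value was in the library with the strongest loss of long transcripts, replicate 1 of P1.5 Wfdc2+/+, and its lowest in the library with the strongest gain, replicate 1 of E18.5 Wfdc2GFP/GFP. The trend and the level of *Ptgis* thus put the libraries in nearly the same order. A fit in which the trend of each library was removed, added after the values had been seen, gave -0.28 ± 0.31 for *Pde5a* and -0.28 ± 0.27 for *Ednra*, against 2.04 ± 0.62 for *Ptgis*, -0.999 ± 0.24 for *Agtr1a* and -0.88 ± 0.28 for *Agtr2*. In it *Ece1* passed the test, at 0.89 ± 0.18 (adjusted p 0.04, with 6.65% of all genes called), and the other 8 did not. In that fit the estimates of *Ptgis*, *Agtr1a* and *Agtr2* kept at least 80.1% of their size, and those of *Pde5a*, *Ednra* and *Nos3* at most 35.4%. Those of *Ece1* and *Edn1* grew, and *Ace* turned from -0.09 to 0.41. The fit takes out the smoothed deviation of genes of like length in each library, and not how closely a single gene follows the trend. How much of each change comes from the trend was not tested.

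**Figure D3:**
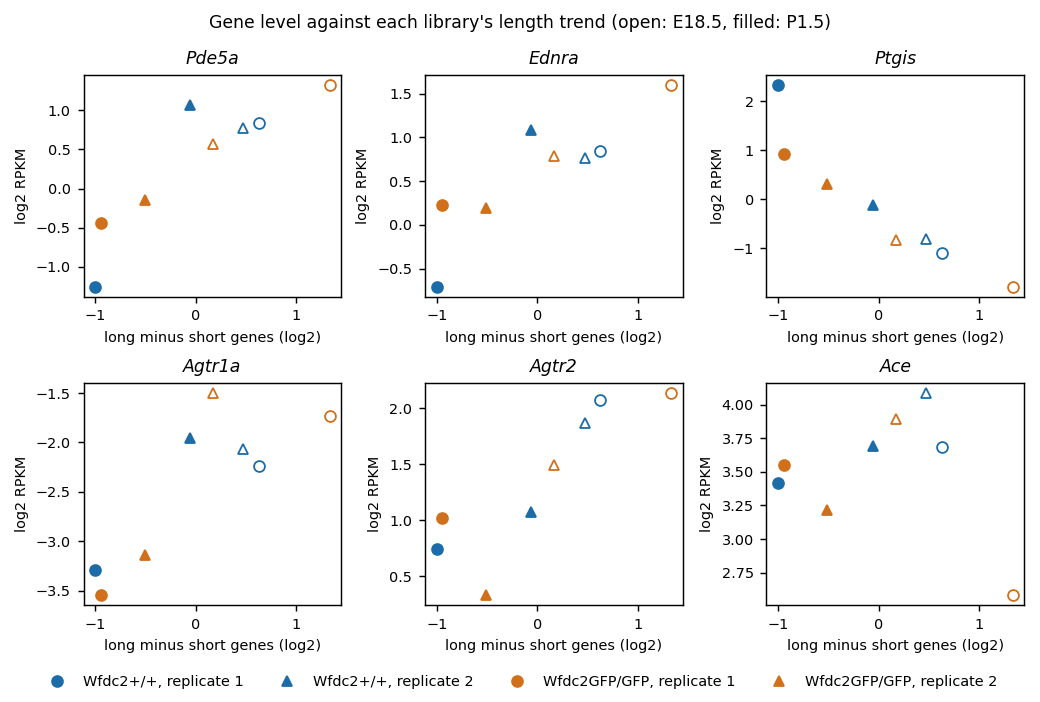
Deposited log2 RPKM of 6 of the genes against the length trend of each library, the median log2 deviation of the 20% longest genes minus that of the 20% shortest, with E18.5 as open and P1.5 as filled symbols. *Pde5a* and *Ednra* are highest and *Ptgis* lowest in the library with the highest trend (1.33), and the reverse holds in the library with the lowest (-1.001).

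The same comparison was made within each genotype, with 2 libraries on either side. In Wfdc2+/+ lungs none of the 9 passed the test, where 9 genes (0.0576%) did, with 2 of the 9 at an unadjusted p under 0.05, beside 11.8% of all genes, and 0 called by voom. In Wfdc2GFP/GFP lungs none passed where 711 genes (4.55%) did, with 3 at an unadjusted p under 0.05, beside 35.6% of all genes, and 0 called by voom. *Ptgis* was at 2.07 ± 0.75 in Wfdc2+/+ (adjusted p 0.379) and 1.94 ± 0.75 in Wfdc2GFP/GFP (adjusted p 0.114). The first of these rests on the pair of unlike P1.5 replicates, and was 0.84 without replicate 1 of P1.5 Wfdc2+/+ and 3.30 without replicate 2. *Agtr2* was at -1.07 ± 0.37 in Wfdc2+/+ (adjusted p 0.368) and -1.14 ± 0.37 in Wfdc2GFP/GFP (adjusted p 0.0821). These were the genes at an unadjusted p under 0.05 in both genotypes.

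*Agtr1a* was at an unadjusted p under 0.05 in Wfdc2GFP/GFP lungs, where its change was -1.73 ± 0.52 (95% interval -2.93 to -0.52, adjusted p 0.0733), 3.31-fold lower at P1.5. In Wfdc2+/+ lungs it was -0.47 ± 0.52 (adjusted p 0.629), and without replicate 1 of P1.5 Wfdc2+/+ 0.20. *Edn1* had estimates of opposite sign, 0.32 ± 0.49 in Wfdc2+/+ and -0.73 ± 0.49 in Wfdc2GFP/GFP, with overlapping stages in both. *Pde5a*, *Ednra* and *Ece1* had changes of -0.90 ± 0.69, -0.62 ± 0.57 and 0.18 ± 0.33 in Wfdc2+/+, and of -1.24 ± 0.69, -0.98 ± 0.57 and 0.60 ± 0.33 in Wfdc2GFP/GFP, where their stages did not overlap. In Wfdc2GFP/GFP 18.7% of all genes were higher and 48.5% lower without overlap, so that separation of 2 libraries from 2 was common.

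The test of the difference itself, the change across birth in Wfdc2GFP/GFP minus that in Wfdc2+/+, called none of the 9 and no gene at all (0% of 15627), by limma and by voom, with 0 of the 9 at an unadjusted p under 0.05, beside 10.2% of all genes. The largest estimate among the 9 was that of *Agtr1a*, at -1.26 ± 0.74 (95% interval -2.97 to 0.45, adjusted p 0.62), or -2.04 ± 0.50 (adjusted p 0.0918) without the libraries that stood apart, followed by *Edn1* at -1.05 ± 0.69 (95% interval -2.65 to 0.56, adjusted p 0.669). At the other end was *Ace*, at 0.47 ± 0.63. The narrowest interval of the 9 was that of *Ece1*, from -0.65 to 1.49.

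**Figure D4:**
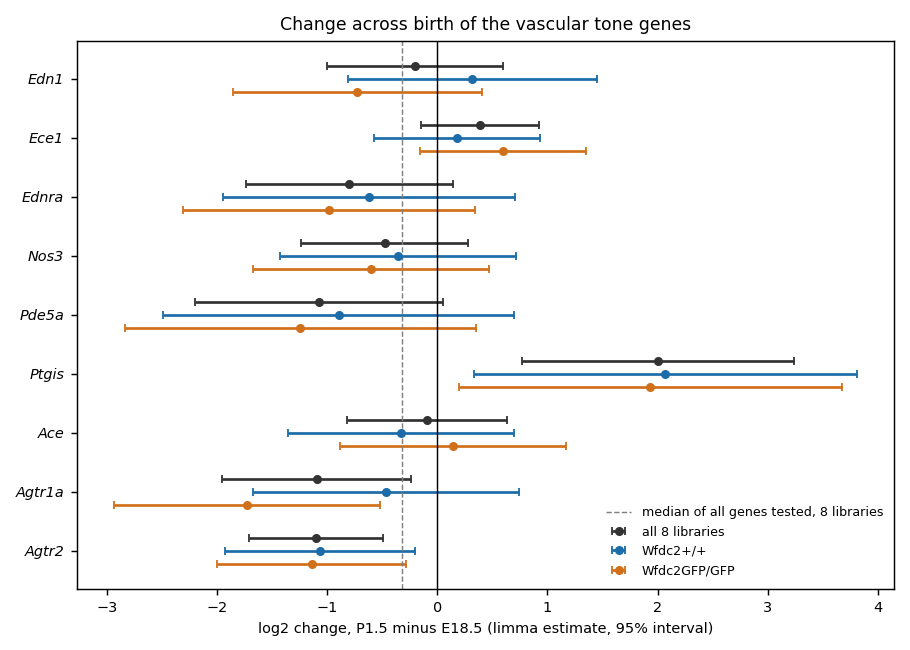
Change of each gene across birth in log2, P1.5 minus E18.5, as the limma estimate with its 95% interval, over all 8 libraries (black), in Wfdc2+/+ (blue) and in Wfdc2GFP/GFP (orange), with the median of all genes tested as a dashed line at -0.32. The intervals of *Ptgis*, *Agtr2* and *Agtr1a* lie clear of 0 over all libraries, and the intervals of the 2 genotypes overlap in every gene.

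The second question was whether the RNA levels of the 9 genes differed between whole Wfdc2GFP/GFP and Wfdc2+/+ lungs at 1 stage. At P1.5 none of the 9 passed the test, where 2 genes (0.0128%) did, and at E18.5 none passed where 3 (0.0192%) did, with 0 of the 9 at an unadjusted p under 0.05 and 0 called by voom at both stages, beside 10.9% and 4.37% of all genes at an unadjusted p under 0.05. At P1.5 the estimates, Wfdc2GFP/GFP minus Wfdc2+/+, ran from -0.80 ± 0.49 for *Edn1* (adjusted p 0.597) to 0.26 ± 0.33 for *Ece1*. The estimate for *Edn1* was between -1.37 and -0.24 with 1 library left out, the ends being the fits without replicate 2 and without replicate 1 of P1.5 Wfdc2GFP/GFP. *Edn1* was the 1 gene of the 9 whose P1.5 genotypes did not overlap, with 320 and 283 reads in Wfdc2+/+ against 131 and 364 in Wfdc2GFP/GFP, which at the depths of these libraries is 6.89 and 6.80 against 2.64 and 5.82 RPKM over exons. Of all genes, 26.9% were lower without overlap in the same comparison.

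*Pde5a* showed how far this comparison rests on single libraries. Its genotype difference at P1.5 was -0.21 ± 0.69 (adjusted p 0.925) with all libraries and -1.37 ± 0.25 (adjusted p 0.0322, with 17.1% of all genes called) without the 2 libraries that stood apart, which leaves 1 Wfdc2+/+ library at P1.5. Without the other Wfdc2+/+ library, replicate 2, it was 0.96 in the opposite direction, and with the length trend removed it was 0.14. At E18.5 the estimates ran from -0.65 ± 0.44 for *Ace* to 0.54 ± 0.52 for *Agtr1a*, the 1 gene of the 9 without overlap between genotypes at this stage, beside 26.5% of all genes that were higher without overlap. At P1.5 the estimate for *Agtr1a* was -0.72 ± 0.52 (adjusted p 0.667), and its genotypes overlapped. It was -0.053 without replicate 2 of P1.5 Wfdc2+/+ and -1.39 ± 0.35 without the libraries that stood apart (adjusted p 0.0525, with 17.1% of all genes called).

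Ratios within a library do not depend on the scaling between libraries, but ratios of genes of unlike length still carry the length trend. Tested by stage (P1.5 against E18.5, 4 libraries each) were 12 ratios, by exact permutation, two-sided, with 0.0286 as the smallest p. None passed after Benjamini-Hochberg adjustment over the 12, which a ratio at the smallest p passes only if most of the 12 lie there too. *Ptgis* relative to the mean log2 of 8 mural markers was higher at P1.5 in 4 of 4 libraries, by 2.01 (exact p = 0.0286, adjusted p 0.114), or 1.20 without replicate 1 of P1.5 Wfdc2+/+, while *Ednra* and *Agtr1a* relative to the same markers were lower in 4 of 4, by -0.79 and -1.09 (exact p = 0.0286 and adjusted p 0.114 for each). The ratio of *Ptgis* was highest (1.66) in replicate 1 of P1.5 Wfdc2+/+ and lowest (-3.33) in replicate 1 of E18.5 Wfdc2GFP/GFP. These libraries had the lowest and the highest length trend. For *Ednra* the stages nearly met, at -1.09 in replicate 2 of E18.5 Wfdc2GFP/GFP and -1.1 in replicate 2 of P1.5 Wfdc2+/+. The highest ratio of *Ednra* (0.07) was in replicate 1 of E18.5 Wfdc2GFP/GFP. *Pde5a* and *Agtr2* differed by -1.06 and -1.09 relative to the mural markers, with stages that overlapped (exact p = 0.0571, adjusted p 0.114). Relative to 8 endothelial markers, *Ece1* differed by 0.38, *Nos3* by -0.49, *Edn1* by -0.21 and *Ace* by -0.10, with an exact adjusted p of 0.114, 0.147, 0.81 and 0.81. *Ednra* relative to *Ednrb*, the other endothelin receptor gene, differed by 0.11, and *Edn1* relative to *Nos3*, the constrictor ligand against the dilator synthase, by 0.28 (exact adjusted p 0.81 and 0.643).

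Markers of vascular and other lung cell types were read beside the 9 genes across birth, with both genotypes pooled. All 8 endothelial and all 8 mural markers passed the filter on low values, and 1 of each list was called, *Egfl7* (1.59, adjusted p 0.037) and *Tagln* (1.76, adjusted p 0.0348), which rose, beside 5.14% of all genes. The estimates of 6 of the 8 endothelial and 5 of the 8 mural markers were below 0, with medians of -0.32 and -0.51. Of all 15627 genes tested, 9804 were below 0, with a median of -0.32. Summed over exons, the endothelial markers ran from 368 to 656 RPKM at E18.5 and from 757 to 1267 at P1.5, a difference carried by *Cldn5* (mean 153 against 524) and *Egfl7* (71.8 against 211), while the other 6 had lower means at P1.5. The mural sums ran from 208 to 294 and from 157 to 561. Of the 5 fibroblast markers all had estimates below 0 and *Pdgfra* fell (-1.57, adjusted p 0.0425), with sums from 415 to 479 at E18.5 and from 131 to 535 at P1.5. The 6 leukocyte markers summed to between 94.1 and 517 RPKM at E18.5 and between 1047 and 1532 at P1.5, most of it from *Lyz2* and *S100a8*. Of the 5 that passed the filter, *S100a8* and *Cd79a* rose (limma adjusted p 0.0108 and 0.0144). The part of these shifts in the values of the 9 genes was not tested, and in whole lung fewer cells of a type and less RNA per cell cannot be told apart.

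Around the 9 genes, a list of 88 further genes of the same pathways and of vessel contraction was read, of which 73 had enough signal to be tested. Across birth in both genotypes, 2 of the 73 rose and 6 fell, beside 5.14% of all genes, with a median change of -0.29 for the list and -0.32 for all genes. *Edn3*, another endothelin ligand, had 2685 to 5074 reads in the E18.5 libraries and 238 to 383 at P1.5, or 21.2 to 33.2 RPKM over exons against 2.63 to 4.79. It fell by 2.88 ± 0.28 (adjusted p 0.00745), 7.34-fold, and it passed the test in 11 of 11 other settings and in 8 of 8 fits with 1 library left out. It also fell within Wfdc2GFP/GFP, by 3.18 (adjusted p 0.021), and in Wfdc2+/+ its change was -2.57 ± 0.39 (adjusted p 0.0744).

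*Nos2*, the inducible nitric oxide synthase, had between 3.07 and 5.69 RPKM over exons at E18.5 and between 0.685 and 2.4 at P1.5, and fell (-2.21 ± 0.42, adjusted p 0.038). *Ass1*, which makes the arginine precursor that nitric oxide synthases need, fell as well (-3.18 ± 0.60, adjusted p 0.0358), as did *Cav1*, a scaffold that holds the endothelial synthase inactive (-1.10 ± 0.23, adjusted p 0.0431). *Ddah2*, an enzyme that removes an inhibitor of nitric oxide synthases, rose (1.18 ± 0.25, adjusted p 0.044). The other genes were *Ramp3*, a partner of the adrenomedullin receptor, which rose (3.996 ± 0.59, adjusted p 0.0213), and *S1pr3*, a sphingosine phosphate receptor, and *Abcc9*, the regulatory subunit of a potassium channel of smooth muscle, which fell (-1.45 ± 0.24 and -1.97 ± 0.41, adjusted p 0.0276 and 0.0429). In the other settings *S1pr3* passed in 11 of 11, *Nos2* and *Ramp3* in 9 of 10, and *Abcc9* in 7 of 10. *Ass1* passed in 7 of 11, and *Ddah2* and *Cav1* in 6 of 11. The part of the length trend in these changes was not tested. Each of these 7 genes passed in 2 or 3 of the 8 fits with 1 library left out.

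Partners of the 9 genes did not pass. *Ednrb* was lower at P1.5 in all 4 libraries (-0.91 ± 0.34, adjusted p 0.0947), with 14.1 to 25.02 RPKM over exons against 26.0 to 63.7 at E18.5. Of all genes tested, 13.7% were lower without overlap in this comparison. *Agt*, the precursor of angiotensin, and *Ren1*, the enzyme that cuts it, were at 1.14 ± 0.42 and 1.07 ± 0.43 (adjusted p 0.0947 and 0.11). *Ptgir*, the prostacyclin receptor gene, was at -0.30 ± 0.46 (adjusted p 0.623) with 24 to 84 reads per library, *Ptgs1* and *Ptgs2*, which feed the synthase, at -0.03 ± 0.24 and -0.13 ± 0.72, and *Ece2* at 0.24 ± 0.27. *Nos1* and *Agtr1b* had 2 to 36 and 2 to 113 reads per library and were under the filter on low values. Within Wfdc2GFP/GFP, 1 of the 73 rose (*Ramp3*) and 3 fell (*Edn3*, *S1pr3* and *Abcc9*), and in Wfdc2+/+ none passed in limma or voom, with 14 at an unadjusted p under 0.05, beside 11.8% of all genes. Between genotypes none of the 73 passed in limma or voom at either stage, with 10 at an unadjusted p under 0.05 at P1.5 and 1 at E18.5, beside 10.9% and 4.37% of all genes.

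Genes with the most similar profiles were sought among the 9422 genes that averaged 0.5 RPKM or more, by Pearson correlation of log2 RPKM over the 8 libraries, which share stage and length trend. *Pde5a* was nearest to *Prpsap2*, *Nexn* and *Lmnb2* (r from 0.994 to 0.995), *Ednra* to *Plekha6*, *Zfp326* and *Zdhhc20* (0.99 to 0.995), and *Ptgis* to *Gm16517*, *Nrtn* and *1110001J03Rik* (0.99 to 0.992). *Agtr1a* was nearest to *Fhod1*, *Kat2a* and *Dhodh* (0.99 to 0.993), *Nos3* to genes that include *Lamtor3* and *Bahd1* (0.976 and 0.963), and *Ece1* to *Bcl2a1b*, *C1ra* and *Gm2a* (0.972 to 0.977). The profiles of *Ace* (*Cnn2*, *Scnn1a* and *Itprip*, 0.946 to 0.973), *Agtr2* (*Lysmd3*, *Arhgap5* and *Ipo7*, 0.961 to 0.968) and *Edn1* (*Plcd1*, *Tsen54* and a row named *Srcap*, 0.915 to 0.953) were followed less closely. *Nrtn*, for example, had 1040 reads in replicate 1 of P1.5 Wfdc2+/+ and 70 to 433 in the other libraries, the same library in which *Ptgis* was highest.

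**Figure D5:**
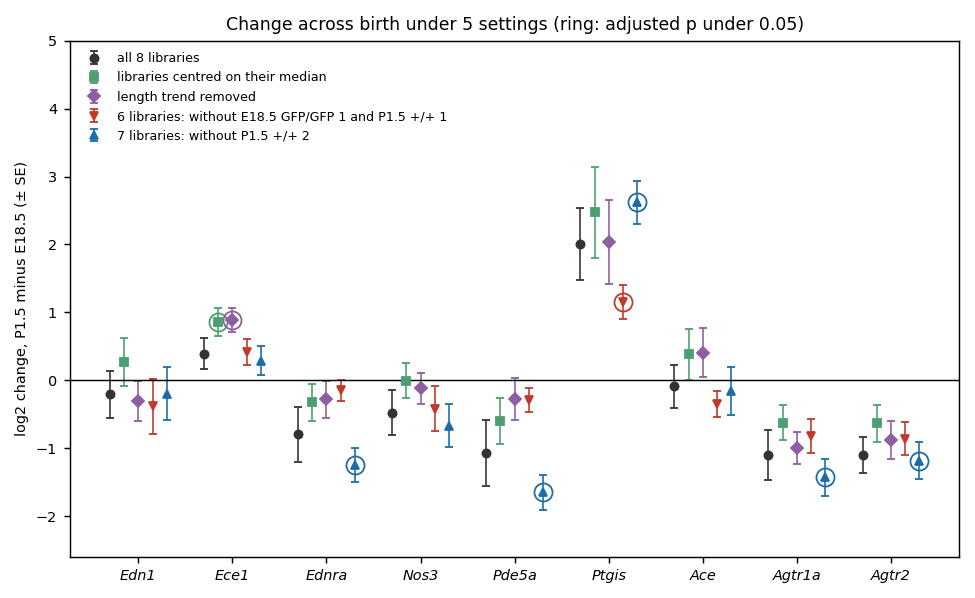
Change of each gene across birth (log2, P1.5 minus E18.5, ± SE) with all 8 libraries, with libraries centred on their medians, with the length trend removed, without the 2 libraries that stood apart, and without replicate 2 of P1.5 Wfdc2+/+. Rings mark an adjusted p under 0.05. *Ptgis* and *Ece1* stay above 0 in all 5 settings shown. Both angiotensin receptor genes, *Pde5a*, *Ednra* and *Nos3* stay below 0, and *Pde5a* ranges from -1.65 to -0.28.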

How the data were processed

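Total lung RNA was sequenced from 8 samples, 2 in each group of genotype and stage, with a directional library kit. The authors trimmed the reads with Trim Galore 0.4.0, mapped them to mm10 with TopHat2 2.1.1 guided by mRNA coordinates, then used SeqMonk for counting and normalisation. What they deposited is log2 RPKM, 1 value per gene and library, for 25965 genes. A test of the numbers showed that length here means the full gene span with introns, and that genes with no reads stand at 0.9 read. Since the values step by whole reads, reads could be recovered (99.86% to 99.97% of values within 0.02 of a whole number), and RPKM over exons was computed from them with GENCODE M21. A limit of detection of 3 reads covers counting error only and stands for 0.0806 to 0.154 RPM.

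Samples were grouped by their labels. The filter on low values was a mean over the libraries of 0.05 RPKM or more, which 15627 genes passed, the 9 included. The test was limma (version 3.58.1, R 4.3.3) on the 4 group means, with a trended prior and 4 degrees of freedom left for the spread. P-values are two-sided with Benjamini-Hochberg adjustment and a threshold of 0.05. Ratios were tested by exact permutation in Python 3.11.15. The fit and the permutation test were tested on simulated data. Tables used pandas 2.3.3 and numpy 2.4.6, and figures matplotlib 3.10.9.

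The 9 genes, the pathway and marker lists and the tests were chosen with earlier results of these data known. Named besides the 9 were a fixed set of their partners, in each contrast, of the pathway genes past the threshold, the 3 that rose most and the 3 that fell most, and for each of the 9 genes the 3 with the highest correlation. *Cav1* was named after its values were seen, and 2 genes that these rules name are not reported here. Of the 43 markers 41 were found. Alternatives were median centring, quantile normalisation, a pseudocount of 0.1 or 1 RPKM, no filter, a mean of at least 0.5 RPKM, voom on the recovered reads, a prior without a trend, a replicate block, the 4 libraries of a contrast alone and each library left out. Leaving out the 2 libraries that stood apart and removing the trend with exon length were added after seeing the data, the latter over 13828 genes with a length (88.5%).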

Additional observations from a re-analysis of the deposited data

How the results depend on the processing

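The counts of the 9 genes past the threshold, 0 in each of the 6 contrasts, changed as follows, with the share of all genes called in the same fit. Across birth in both genotypes the count was 1 with median centring (*Ece1*, 11.8%), 1 with a pseudocount of 0.1 RPKM (*Agtr2*, adjusted p 0.0488, 6.42%), 2 with a mean of at least 0.5 RPKM (*Ptgis* and *Agtr2*, adjusted p 0.0339 and 0.0323, 17.9%, with *Agtr1a* under that filter), 1 without the 2 libraries that stood apart (*Ptgis*, 9.43%), 1 with the length trend removed (*Ece1*, 6.65%), and 0 to 5 with 1 library left out, 5 without replicate 2 of P1.5 Wfdc2+/+ (45.6%) and 1 without replicate 2 of E18.5 Wfdc2GFP/GFP (*Agtr2*, adjusted p 0.0305, 20.2%). In Wfdc2GFP/GFP it was 1 with median centring (*Ece1*, 8.18%), 2 with its 4 libraries alone (*Ptgis* and *Agtr1a*, 19.4%), 2 without the libraries that stood apart (the same genes, 17.8%), 2 with the length trend removed (*Ece1* and *Agtr1a*, 8.61%), and 0 to 4 with 1 library left out, 4 without either P1.5 Wfdc2+/+ library (31.2% and 31.1%). In Wfdc2+/+ it was 0 to 3 with 1 library left out, 3 without replicate 2 of P1.5 Wfdc2+/+ (13.9%), and at P1.5 between genotypes it was 1 without the libraries that stood apart (*Pde5a*, 17.1%). The cause of these changes was not tested. In the contrast at E18.5 and in the difference between genotypes the count was 0 in every setting. The count of ratios was also 0 in every setting, but with the replicate block or with both libraries left out no ratio could pass. Fits with a library left out take a lone sample to vary like the other groups, and that group then holds only 1 sex.

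Of all genes tested across birth, 803 were called, 287 to 1842 under the other settings with all or 6 libraries, and 28 to 7125 with 1 library left out. In Wfdc2GFP/GFP 711 were called, 125 to 2778 and 0 to 4874 in the same settings and 3036 with its 4 libraries alone, and in Wfdc2+/+ 9, with 0 to 88 and 0 to 2166. With the replicate block 287 genes were called across birth and 0 of the 9, and the block changed no call of the 9 genes. The block also divides the libraries by sex, since replicate 1 was read as female and replicate 2 as male in every group. Replicate numbers were not taken to pair the samples beyond that, since the deviations of replicate 1 from the group means correlated between groups with r from -0.294 to 0.23.

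Of the 54 estimates, 9 genes in 6 contrasts, 29 turned direction in at least 1 setting, among them 7 of 9 between genotypes at E18.5. Values named in the text turned as follows. Across birth *Edn1* was 0.27 with median centring, 0.10 with quantile normalisation and -0.49 to 0.081 with 1 library left out, and *Ace* was 0.38 with median centring, 0.41 with the length trend removed and -0.42 to 0.24. In Wfdc2+/+ without the libraries that stood apart *Ednra* was 0.28, *Pde5a* 0.27 and *Agtr1a* 0.20, and with 1 library left out these ran from -1.51 to 0.28, from -2.06 to 0.27 and from -1.14 to 0.20, *Ece1* from -0.022 to 0.38 and *Edn1* from -0.11 to 0.75. Between genotypes at P1.5 *Pde5a* was 0.14 with the length trend removed and -1.37 to 0.96, at E18.5 *Ace* was 0.008 without the libraries that stood apart and -1.30 to 0.008, and *Edn1* -0.19 to 0.68. The difference for *Ace* was -0.32 without them and -0.18 to 1.13. Among the ratios with 1 library left out, *Agtr1a* over *Agtr2* ran from -0.24 to 0.27, *Ednra* over *Ednrb* from -0.038 to 0.28, *Edn1* over endothelial markers from -0.58 to 0.14 and *Ace* over them from -0.32 to 0.071. Across birth over both genotypes, 2 of the 9 genes turned in some setting, *Ace* and *Edn1*. The others, *Agtr1a* among them, kept their direction in every setting run. *Ptgis* and *Agtr2* also kept it within each genotype.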
